A study of Homo sapiens with 60 samples.

Results

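A water extract of Coptidis Rhizoma was studied at its highest against its lowest dose in HT29, a cultured line that was derived from a human colorectal adenocarcinoma. The comparison takes all libraries of 2 of the study's 20 groups, 6 of 60 libraries. The high dose is 3 libraries of cells given 290 µg/mL for 24 h, the dose at which the extract inhibited the cells by 20% per the series text. It is set against 3 libraries of cells given 11.6 µg/mL for 24 h, a dose 25-fold lower. Libraries of cells given 58 µg/mL, 3 in number, are described beside them. By their sample codes the libraries of all 3 doses are of the same set, and no vehicle enters the comparison. Messenger RNA was sequenced, and the authors deposited expected counts per gene. The labels give no composition for the extract, do not say whether DMSO was added with it, and leave unsaid if each of the 3 libraries of a dose is a culture of its own. The p-values therefore weigh the difference between doses only against the spread among libraries of a group, which may be technical. That spread was estimated over all 60 libraries. The cells are 1 line, without the other cells of an intestine.

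Libraries held 21.4, 26.6 and 28.4 M counts at 290 µg/mL, against 28.6, 33.6 and 25.7 M at 11.6 µg/mL, where M is 1000000. No library was a copy of another, as chi-square values per gene between libraries of a dose ran from 2.85 to 8.83, where sampling alone gives about 1. All 12 markers of colon epithelium were expressed enough to test. Of these 3 were higher and 6 lower, 3 of them (CEACAM6, CEACAM5 and CDX1) at least halved, and together the 12 took 1.11 to 1.19% of counts at 290 µg/mL, against 1.17 to 1.23% at 11.6 µg/mL. Of 21 markers of other cell types only 9 had enough counts to test, 0 of them higher and 3 lower (PECAM1, LYZ and MYH11). LYZ, which codes for lysozyme, is abundant in these cells. The other 20 summed to 0.00198 to 0.00209% of counts at 290 µg/mL, against 0.00211 to 0.00222% at 11.6 µg/mL, and COL1A2, CDH5 and ALB were at 0 in all 6 libraries. In bulk RNA, fewer cells of a kind and less RNA per cell cannot be told apart.

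Coptidis Rhizoma is the dried rhizome of Coptis plants, used in East Asian medicine for complaints of the gut. Its best known alkaloid, berberine, slows respiratory complex I in cultured cells, activates the energy sensor AMPK, and can activate the aryl hydrocarbon receptor (AhR), a sensor of foreign compounds. Cells short of amino acids, with blocked respiration or with misfolded protein slow translation through a common phosphorylation, which favours the translation of the transcription factor ATF4. ATF4 then turns on genes of amino acid supply and of stress.

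The high dose was called different for 8694 genes, most of them by less than 2-fold. Of 16609 genes tested, 8694 (52.3%) were called, that is, had an edgeR adjusted p below 0.05. At 290 µg/mL 4499 genes were higher (27.1% of those tested) and 4195 lower (25.3%). Only 1465 (8.82%) were called and at least doubled or halved, 772 of them higher (4.65%) and 693 lower (4.17%). The libraries of the doses did not overlap for 10200 genes (61.4%). The median log2 change over all genes tested was 0.00 (0.0015), and its quartiles were -0.32 and 0.30. On the first principal component of all 60 libraries, with 15.7% of the variance, the 290 µg/mL libraries stood at 71.9 to 74.4, those of 58 µg/mL at 9.87 to 11.6 and those of 11.6 µg/mL at -2.45 to -1.39. Because so many genes were called, each group of genes below is read against these shares and against the shares that doubled or halved.

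**Figure D1:**
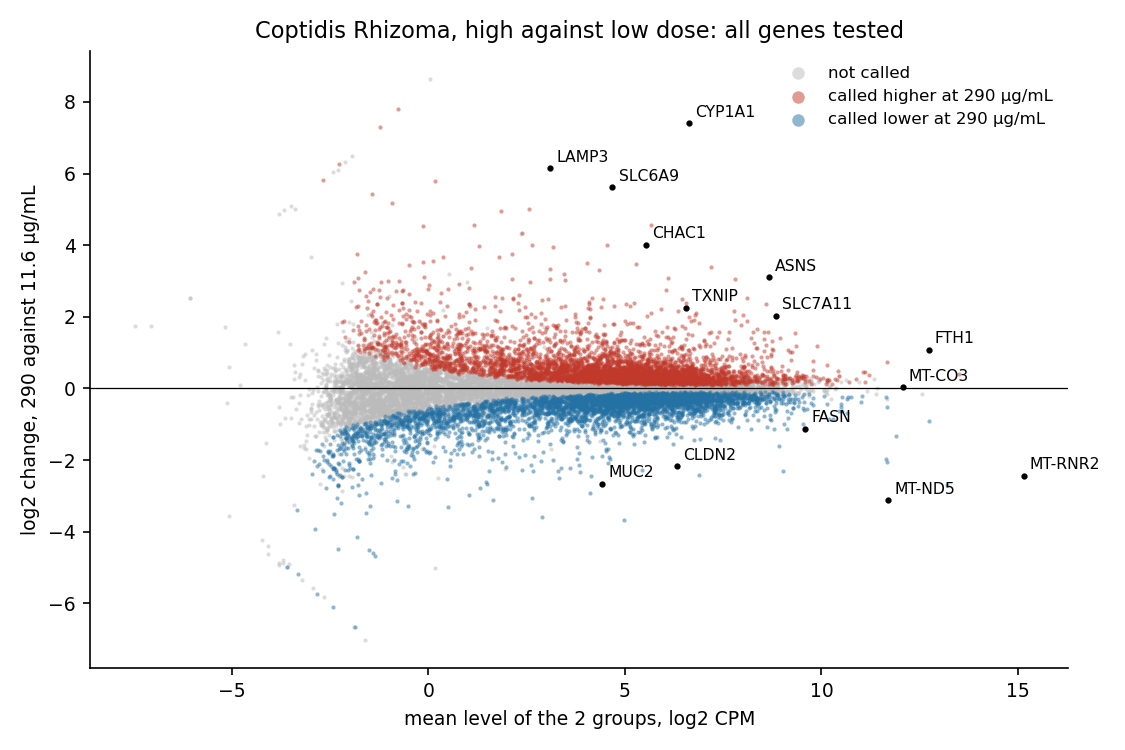
Log2 change between 290 and 11.6 µg/mL (vertical axis) by the mean level of the 2 groups in log2 CPM (horizontal axis) for the genes tested, each a point; red points were called higher, blue ones lower and grey ones were not called. Genes high above the bulk include CYP1A1 at 7.40 and LAMP3 at 6.14, and at the right edge MT-RNR2 stands at -2.43 while MT-CO3 stands at 0.03.

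The 12 largest rises were named among called genes with no overlap between libraries and a mean of at least 5 CPM in the higher group. They included a detoxifying enzyme and members of the amino acid stress response. FGF21, which also rose but was below that level, is described with the ATF4 target genes. CYP1A1 (ENSG00000140465, chr15:74719542-74725610, GRCh38, GENCODE 29), the oxidase that AhR controls most tightly, had 196, 198 and 194 CPM at 290 µg/mL, against 1.07, 1.07 and 1.35 CPM at 11.6 µg/mL. Levels here are counts per 1000000, scaled by TMM (CPM). The libraries of the doses were far apart, the rise was 169-fold (log2 change 7.40 ± 0.13, edgeR adjusted p = 3.29e-41), and the mean at 58 µg/mL was 11.3 CPM. SLC6A9, the glycine carrier GLYT1, had 48.5, 54.1 and 48.5 CPM at 290 µg/mL, against 1.03, 0.889 and 1.15 CPM at 11.6 µg/mL (log2 change 5.62 ± 0.21, edgeR adjusted p = 4.11e-28). LAMP3, a lysosomal membrane protein, had 15.7, 17.1 and 17.8 CPM at 290 µg/mL, against 0.250, 0.215 and 0.238 CPM at 11.6 µg/mL (log2 change 6.14 ± 0.29, edgeR adjusted p = 2.82e-24), and at 58 µg/mL its mean of 0.244 CPM was like that of the low dose. UNC5B, a netrin receptor, was raised 32.1-fold, CLGN, a chaperone of the endoplasmic reticulum, 30.7-fold, and NIBAN1, a stress-induced regulator of translation, 23.4-fold (edgeR adjusted p = 1.13e-21, 8.65e-18 and 7.54e-35). CHAC1, which breaks down glutathione, ADM2, a secreted peptide, and NUPR1, a small chromatin protein of stress, each rose about 16-fold (log2 changes 4.01, 4.01 and 4.00). ULBP1, a ligand of the NKG2D receptor of killer cells, LINC00365, a noncoding RNA, and G0S2, an inhibitor of the fat-splitting lipase ATGL, complete the 12 with log2 changes of 3.95, 3.76 and 3.68. In all 12 the mean at 58 µg/mL lay between those of the other doses.

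Among the 12 largest falls by the same rule, of which 11 are described, were products of secretory cells and RNAs of the mitochondrial genome. The repressor NR0B2 (SHP, chr1:26911489-26913966) of bile acid synthesis had 0.584, 0.577 and 0.749 CPM at 290 µg/mL, against 4.89, 5.92 and 6.15 CPM at 11.6 µg/mL (log2 change -3.13 ± 0.23, edgeR adjusted p = 7.58e-17). The protein disulphide isomerase AGR3 of secretory cells had 1.08, 1.299 and 1.53 CPM at 290 µg/mL, against 11.5, 11.8 and 10.04 CPM at 11.6 µg/mL (log2 change -3.07 ± 0.15, edgeR adjusted p = 3.3e-23). In both the libraries of the doses did not overlap. MUC2, the gel-forming mucin of the colon, is described below with the goblet cell genes. The noncoding RNA LINC00261 next to FOXA2, the small GTPase RASL11A and the hyaluronan-binding protein CEMIP changed by -2.50 ± 0.12, -2.44 ± 0.11 and -2.33 ± 0.12 (edgeR adjusted p = 2.82e-24, 7.57e-25 and 1.77e-22). RN7SL1, the RNA of the signal recognition particle, was also called (log2 change -2.92 ± 0.86, edgeR adjusted p = 0.004), but it had 4.36, 4.37 and 3.403 CPM at 290 µg/mL, against 80.8, 5.85 and 5.001 CPM at 11.6 µg/mL. One library of the low dose held nearly all of that signal, and without it RN7SL1 was not called (log2 change -0.43, edgeR adjusted p = 0.727). MT-ND5, MT-RNR1, MT-RNR2 and MTND2P28, a nuclear pseudogene that shares sequence with MT-ND2 and may share its reads, were also among them.

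ATF4 target genes rose together. Of 27 listed, 26 were tested, of which 23 rose, 0 fell and 21 at least doubled, with a median log2 change of 2.23. In a fit of only the 6 libraries 2 fell, and 1 did without low-dose replicate 1. ASNS, asparagine synthetase, had 728, 710.1 and 738 CPM at 290 µg/mL, against 85.9, 85.6 and 79.8 CPM at 11.6 µg/mL (log2 change 3.11 ± 0.06, edgeR adjusted p = 4.83e-40). The pseudokinase TRIB3, which restrains the same pathway, had 401, 410.1 and 375 CPM at 290 µg/mL, against 48.5, 46.03 and 46.8 CPM at 11.6 µg/mL (log2 change 3.07 ± 0.07, edgeR adjusted p = 3.34e-38). In both genes the libraries of the doses were far apart. PSAT1, of serine synthesis, had 644, 647 and 655 CPM at 290 µg/mL, against 127, 127 and 129 CPM at 11.6 µg/mL (log2 change 2.34 ± 0.05, edgeR adjusted p = 3.41e-38). DDIT4, an inhibitor of mTORC1, had 272, 274 and 252 CPM at 290 µg/mL, against 25.4, 25.6 and 25.2 CPM at 11.6 µg/mL (log2 change 3.39 ± 0.08, edgeR adjusted p = 5.15e-37). PPP1R15A (GADD34), which reverses the translational block, had 164, 153 and 157 CPM at 290 µg/mL, against 30.6, 29.6 and 29.8 CPM at 11.6 µg/mL (log2 change 2.40 ± 0.06, edgeR adjusted p = 1.5e-35) and, unlike ASNS, had the low-dose level at 58 µg/mL (mean 30.6 CPM, against 201 CPM for ASNS). The death-linked factor DDIT3 (CHOP) had 75.5, 67.1 and 71.05 CPM at 290 µg/mL, against 6.17, 7.02 and 6.03 CPM at 11.6 µg/mL, and ATF4 itself had 469, 437 and 449 CPM at 290 µg/mL, against 267, 279 and 265 CPM at 11.6 µg/mL. The hormone FGF21 had 1.12, 1.05 and 1.36 CPM at 290 µg/mL, against 0, 0 and 0 CPM at 11.6 µg/mL. Its expected count rounded to 0 in each low-dose library, so no fold is given. ALDH1L2, ALDH18A1 and ATF5 were not called, and STC2 was not tested.

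The promoters of members that carry the C/EBP-ATF composite element are shown because ATF4 binds that element. The pattern searched was TGATGNAA on either strand, in the 250 bases before and 50 after each RefSeq gene start (GRCh38.p14). Of 22 listed genes with a promoter entry 5 held it (22.7%), against 1217 of all 27305 genes with an entry (4.46%). They were ATF3, CHAC1, CEBPG, FGF21 and ASNS. The 250 bases before the start are given for 4 of them, 5′ to 3′ on the gene's strand, with the match in capitals. A match is a description of the letters, not a measured site.
ASNS (chr7:97872409-97872658, minus strand): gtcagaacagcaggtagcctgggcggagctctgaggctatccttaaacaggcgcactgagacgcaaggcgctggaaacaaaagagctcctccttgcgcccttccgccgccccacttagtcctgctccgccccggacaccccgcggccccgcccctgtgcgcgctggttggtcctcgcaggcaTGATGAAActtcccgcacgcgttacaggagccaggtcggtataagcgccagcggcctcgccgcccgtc
CHAC1 (chr15:40953221-40953470, plus strand): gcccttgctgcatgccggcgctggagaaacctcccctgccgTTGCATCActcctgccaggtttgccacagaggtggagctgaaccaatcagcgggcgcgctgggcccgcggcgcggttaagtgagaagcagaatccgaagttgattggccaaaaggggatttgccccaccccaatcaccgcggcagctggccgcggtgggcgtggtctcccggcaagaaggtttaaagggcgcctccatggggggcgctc
ATF3 (chr1:212565157-212565406, plus strand): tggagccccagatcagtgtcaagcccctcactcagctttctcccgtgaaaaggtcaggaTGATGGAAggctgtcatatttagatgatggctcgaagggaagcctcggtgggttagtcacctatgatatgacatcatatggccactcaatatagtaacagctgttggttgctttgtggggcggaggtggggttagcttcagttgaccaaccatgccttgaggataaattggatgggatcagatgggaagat
CEBPG (chr19:33373863-33374112, plus strand): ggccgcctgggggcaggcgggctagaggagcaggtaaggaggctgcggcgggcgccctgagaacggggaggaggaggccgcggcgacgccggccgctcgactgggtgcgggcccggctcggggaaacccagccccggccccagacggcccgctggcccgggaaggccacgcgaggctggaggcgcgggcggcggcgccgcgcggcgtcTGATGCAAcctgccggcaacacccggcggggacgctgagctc
The first base of the match lay at position -68 from the start in ASNS, -209 in CHAC1, -191 in ATF3 and -42 in CEBPG. CHAC1 held it as the reverse complement, the others as written. CHAC1 had 96.9, 84.9 and 79.7 CPM at 290 µg/mL, against 5.64, 5.46 and 5.04 CPM at 11.6 µg/mL, a 16.2-fold rise. ATF3, itself a transcription factor of the stress response, had 33.8, 27.9 and 28.6 CPM at 290 µg/mL, against 2.85, 2.24 and 2.898 CPM at 11.6 µg/mL. CEBPG, a C/EBP partner of ATF4, had 297, 295 and 312 CPM at 290 µg/mL, against 104, 101 and 98.5 CPM at 11.6 µg/mL.

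Most of the amino acid carriers tested were higher. Of 13 amino acid transporters tested 10 rose and 2 fell, 6 at least doubled and 1 halved, with a median of 0.78. SLC7A11, the cystine and glutamate exchanger, had 691, 759.5 and 772 CPM at 290 µg/mL, against 180.0, 179.9 and 184 CPM at 11.6 µg/mL (log2 change 2.03 ± 0.07, edgeR adjusted p = 2.49e-29). The large neutral amino acid carrier SLC7A5 had 917, 1006 and 940.1 CPM at 290 µg/mL, against 331, 325 and 327 CPM at 11.6 µg/mL and its heavy chain SLC3A2 had 577, 557 and 541 CPM at 290 µg/mL, against 188, 186 and 183 CPM at 11.6 µg/mL (log2 changes 1.54 ± 0.06 and 1.59 ± 0.07, edgeR adjusted p = 4.24e-29 and 2.25e-25). The neutral amino acid carrier SLC1A4 had 57.2, 60.97 and 55.97 CPM at 290 µg/mL, against 11.7, 11.8 and 12.2 CPM at 11.6 µg/mL (log2 change 2.29 ± 0.09, edgeR adjusted p = 6.37e-28). All of these were separated by dose without overlap. The 2 that fell were SLC7A6 and SLC7A8, which had 0.629, 0.541 and 0.749 CPM at 290 µg/mL, against 1.61, 1.26 and 1.35 CPM at 11.6 µg/mL.

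Aminoacyl-tRNA synthetases, which load tRNAs, divided by compartment. Of 20 cytosolic ones 14 rose and 2 fell, and 7 at least doubled (median 0.88), while of 17 mitochondrial ones 2 rose and 9 fell, with 0 doubled or halved (median -0.21). WARS1, for tryptophan, had 404, 407 and 419 CPM at 290 µg/mL, against 102, 97.2 and 101 CPM at 11.6 µg/mL (log2 change 2.04 ± 0.05, edgeR adjusted p = 2.32e-37). GARS1, AARS1, YARS1 and SARS1 (glycine, alanine, tyrosine and serine) changed by 1.58 ± 0.04, 1.59 ± 0.04, 1.12 ± 0.04 and 1.78 ± 0.06 (edgeR adjusted p = 6.3e-37, 4.54e-35, 3.44e-31 and 5.38e-31). VARS1 and FARSA fell, though only 1 cytosolic enzyme did without high-dose replicate 3. The mitochondrial enzyme for alanine, AARS2, had 15.1, 15.9 and 16.3 CPM at 290 µg/mL, against 22.8, 24.9 and 24.97 CPM at 11.6 µg/mL (log2 change -0.62 ± 0.06, edgeR adjusted p = 3.18e-12). SARS2, LARS2 and EARS2 fell as well, by 0.46 ± 0.06, 0.44 ± 0.06 and 0.39 ± 0.05 on the log2 scale, and TARS2 rose (log2 change 0.40 ± 0.06, edgeR adjusted p = 4.35e-08).

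**Figure D2:**
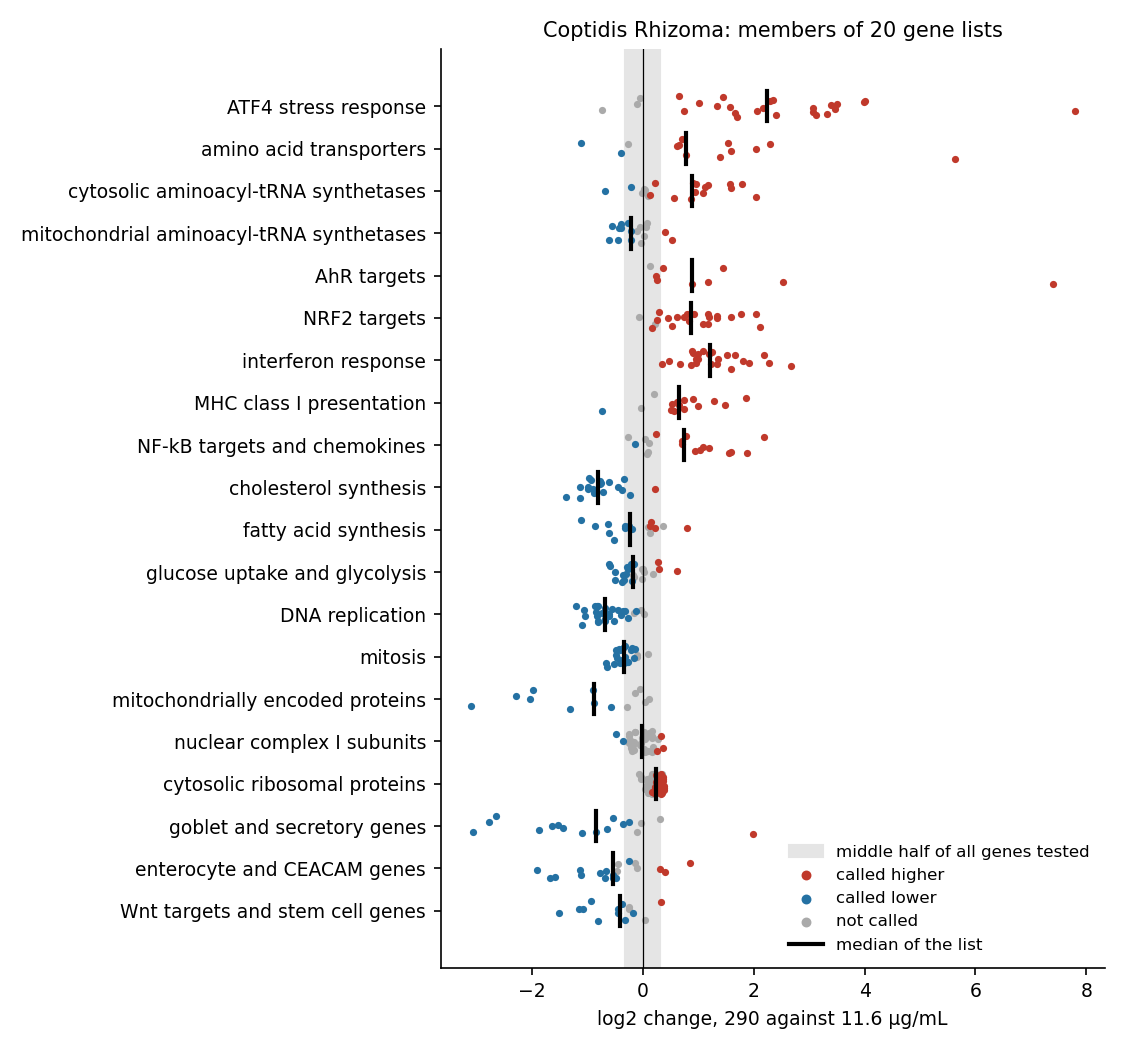
Log2 change between 290 and 11.6 µg/mL (horizontal axis) of each tested member of 20 gene lists (rows); red was called higher, blue lower, grey not called, the black bar is the list's median and the grey band runs between the quartiles of all genes tested. The interferon, ATF4 and NRF2 rows lie to the right of the band (medians 1.21, 2.23 and 0.87) and the cholesterol and DNA replication rows to its left (medians -0.82 and -0.68).

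Genes of foreign-compound and antioxidant defence rose. Of 9 tested AhR targets 8 rose and 4 at least doubled (median 0.88), with CYP1A1 first. CYP1B1, its relative, had 452, 475 and 473 CPM at 290 µg/mL, against 83.5, 81.3 and 77.5 CPM at 11.6 µg/mL (log2 change 2.53 ± 0.08, edgeR adjusted p = 8.62e-31), and TIPARP, which restrains AhR, had 220.2, 232 and 259 CPM at 290 µg/mL, against 90.1, 85.1 and 86.6 CPM at 11.6 µg/mL (log2 change 1.44 ± 0.08, edgeR adjusted p = 4.8e-20). NQO1, a quinone reductase under both AhR and NRF2, had 1338, 1304 and 1322 CPM at 290 µg/mL, against 569, 609 and 578 CPM at 11.6 µg/mL (log2 change 1.17 ± 0.06, edgeR adjusted p = 1.25e-22), and ALDH3A1, an aldehyde dehydrogenase, changed by 0.88 ± 0.09 (edgeR adjusted p = 1e-11). Each of these was separated by dose, and in CYP1B1 the mean of 154 CPM at 58 µg/mL lay between. AhR's partner ARNT was not called. NRF2 is the master factor of antioxidant genes: of its 22 listed targets 20 rose, 0 fell and 10 at least doubled (median 0.87). HMOX1, which degrades haem, had 33.5, 36.2 and 33.7 CPM at 290 µg/mL, against 10.2, 9.69 and 10.6 CPM at 11.6 µg/mL (log2 change 1.76 ± 0.08, edgeR adjusted p = 1.07e-25). GCLC, the first enzyme of glutathione synthesis, and TXNRD1, thioredoxin reductase, changed by 1.17 ± 0.05 and 1.20 ± 0.05 (edgeR adjusted p = 5.07e-27 and 6.2e-26). AKR1C1, an aldo-keto reductase, had 79.03, 84.6 and 81.5 CPM at 290 µg/mL, against 18.4, 19.00 and 19.3 CPM at 11.6 µg/mL (log2 change 2.11 ± 0.09, edgeR adjusted p = 2.46e-25), with reads that may be divided between it and its near-identical relatives AKR1C2 and AKR1C3. TALDO1 and ABCC2 were not called. SLC7A11 and NQO1 are in more than 1 list, so these counts are not independent.

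All 24 tested genes of the interferon response rose, 14 of them at least doubled, with a median of 1.21. IFIT3, which binds viral RNA with its partners, had 34.9, 32.5 and 33.6 CPM at 290 µg/mL, against 11.1, 12.4 and 11.99 CPM at 11.6 µg/mL (log2 change 1.51 ± 0.08, edgeR adjusted p = 4.09e-21). ISG20, an exonuclease, had 19.4, 15.98 and 15.8 CPM at 290 µg/mL, against 3.14, 3.68 and 3.73 CPM at 11.6 µg/mL (log2 change 2.28 ± 0.14, edgeR adjusted p = 2.69e-19). IFIH1 (MDA5), a sensor of double-stranded RNA, had 29.7, 30.4 and 31.7 CPM at 290 µg/mL, against 12.99, 13.6 and 11.99 CPM at 11.6 µg/mL (log2 change 1.25 ± 0.08, edgeR adjusted p = 3.49e-19). In none of the 3 did libraries of the doses overlap, and at 58 µg/mL IFIT3 and IFIH1 had means of 14.3 and 12.8 CPM, near the low dose. The transcription factor IRF1 and the antiviral protein IFIT2 changed by 0.95 ± 0.06 and 1.92 ± 0.13 (edgeR adjusted p = 2.12e-19 and 2.89e-18). Absolute levels were modest, with RSAD2 (viperin) at 2.25, 1.98 and 2.25 CPM at 290 µg/mL, against 0.214, 0.521 and 0.238 CPM at 11.6 µg/mL, and MX1 at 41.5, 42.1 and 38.4 CPM at 290 µg/mL, against 11.8, 11.5 and 11.9 CPM at 11.6 µg/mL. The peptide pathway of MHC class I moved the same way in 12 of 15 cases (1 lower, 3 doubled, median 0.64). TAP1 and TAP2, the peptide pump, changed by 1.28 ± 0.09 and 0.74 ± 0.05 (edgeR adjusted p = 1.36e-16 and 1.55e-17), and HLA-E by 0.53 ± 0.05 (edgeR adjusted p = 8.96e-13). The member that fell, CALR, is a chaperone of the endoplasmic reticulum that also serves in peptide loading (log2 change -0.74 ± 0.06, edgeR adjusted p = 1.28e-14). HLA genes are alike in sequence, and reads may be divided between them.

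NF-kB targets and chemokines rose in 12 of 18 cases (1 fell, 7 at least doubled, median 0.73), though the chemokine CXCL8 was not among them. LCN2 (lipocalin 2), which withholds iron from bacteria, had 261, 233 and 264 CPM at 290 µg/mL, against 83.9, 85.6 and 83.2 CPM at 11.6 µg/mL (log2 change 1.58 ± 0.08, edgeR adjusted p = 2.84e-22). CXCL16, a membrane-bound chemokine, the inhibitor of apoptosis BIRC3 and the NF-kB subunits RELB and NFKB2 changed by 1.03 ± 0.08, 1.19 ± 0.11, 0.95 ± 0.10 and 0.70 ± 0.08 (edgeR adjusted p = 3.13e-15, 2.59e-13, 3.85e-11 and 1.55e-10). CXCL8 had 3.59, 4.65 and 4.73 CPM at 290 µg/mL, against 4.35, 4.32 and 4.13 CPM at 11.6 µg/mL, and CXCL1 had 1.39, 0.866 and 1.395 CPM at 290 µg/mL, against 1.14, 1.38 and 0.834 CPM at 11.6 µg/mL. Both overlapped between doses. CCL20, which attracts dendritic cells, had 1.03, 1.01 and 1.46 CPM at 290 µg/mL, against 0.250, 0.306 and 0.198 CPM at 11.6 µg/mL, and was called. The 1 that fell, NFKB1, was no longer called with no filter, in the 18 libraries of the set, or without any one of high-dose replicates 1 and 2 and low-dose replicates 1 and 3.

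Nearly all genes of cholesterol synthesis were lower. All 20 enzymes were called, 19 lower and 1 higher (TM7SF2), 4 of them at least halved, and the median was -0.82. Across settings 18 to 19 were lower, and without high-dose replicate 1 there were 0 higher. Squalene epoxidase SQLE (chr8:124998497-125022283), a rate-controlling step, had 358, 344 and 356 CPM at 290 µg/mL, against 721, 678 and 692 CPM at 11.6 µg/mL (log2 change -0.98 ± 0.04, edgeR adjusted p = 3.17e-27). HMGCS1, which makes HMG-CoA in the cytosol, had 86.8, 84.99 and 87.6 CPM at 290 µg/mL, against 236, 224 and 219 CPM at 11.6 µg/mL (log2 change -1.39 ± 0.07, edgeR adjusted p = 1.32e-23). The reductase DHCR7, of the last step, changed by -1.14 ± 0.05, and the isomerase IDI1 by -0.91 ± 0.05 (edgeR adjusted p = 9.8e-25 and 5.08e-20). In each of these enzymes the libraries were separated, and the means at 58 µg/mL (610.0 CPM for SQLE and 184 CPM for HMGCS1) lay between.

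Of 14 genes of SREBP2 control and LDL uptake 4 rose and 7 fell, 2 of them at least halved. INSIG1, a feedback brake on SREBP and itself an SREBP target, had 64.6, 54.1 and 55.4 CPM at 290 µg/mL, against 162, 159 and 151 CPM at 11.6 µg/mL (log2 change -1.44 ± 0.06, edgeR adjusted p = 1.06e-26), without overlap between the doses. The sterol carrier STARD4 and the HDL receptor SCARB1 changed by -0.71 ± 0.06 and -0.56 ± 0.05 (edgeR adjusted p = 8.41e-14 and 3.78e-15). On the export side, under LXR, 4 of 7 tested genes rose and 0 fell. ABCG1, a sterol exporter, had 34.1, 37.95 and 38.8 CPM at 290 µg/mL, against 6.89, 6.19 and 6.71 CPM at 11.6 µg/mL (log2 change 2.49 ± 0.09, edgeR adjusted p = 3.75e-28), and ABCA1, its relative, had 7.95, 8.04 and 9.19 CPM at 290 µg/mL, against 5.89, 5.58 and 5.48 CPM at 11.6 µg/mL (log2 change 0.57 ± 0.15, edgeR adjusted p = 0.00109). SMPDL3A, a secreted phosphodiesterase, and NR1H2, which codes for LXR beta, also rose (1.34 ± 0.13 and 0.48 ± 0.09, edgeR adjusted p = 2.9e-12 and 9.33e-06). APOE overlapped between doses at under 1 CPM.

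Fatty acid and energy genes moved less evenly. Of 16 genes of fatty acid synthesis 9 fell and 4 rose (2 without high-dose replicate 3, low-dose replicate 2 or low-dose replicate 3), with a median of -0.23, and 1 halved: fatty acid synthase FASN, with 455, 529 and 455 CPM at 290 µg/mL, against 1066, 1030.2 and 1043 CPM at 11.6 µg/mL (log2 change -1.13 ± 0.09, edgeR adjusted p = 5.34e-15). The desaturase SCD, ATP citrate lyase ACLY and the elongase ELOVL6 changed by -0.63 ± 0.07, -0.52 ± 0.05 and -0.61 ± 0.06 (edgeR adjusted p = 2.02e-10, 3.41e-13 and 4.84e-12). ME1, which supplies NADPH and is also an NRF2 target, rose (log2 change 0.79 ± 0.05, edgeR adjusted p = 4.98e-18). Of 15 genes of fatty acid oxidation and ketone synthesis 7 rose and 3 fell, but 5 rose and 5 fell without low-dose replicate 2, and 4 rose with no filter. The dehydrogenase HADH fell (log2 change -1.06 ± 0.06, edgeR adjusted p = 3.99e-21), and ACADM, the first step for medium chains, rose (log2 change 0.67 ± 0.07, edgeR adjusted p = 2.39e-12), as did the lipid droplet coat PLIN2 (log2 change 0.53 ± 0.09, edgeR adjusted p = 8.56e-07). Of 9 AMPK subunits and upstream kinases tested, 6 rose and 1 fell, the upstream kinase CAMKK2 (log2 change -0.55 ± 0.05, edgeR adjusted p = 1.47e-14). CAB39 and STK11 (LKB1), which form a kinase complex upstream of AMPK, changed by 0.35 ± 0.05 and 0.42 ± 0.07, and the subunits PRKAB2 and PRKAG2 by 0.36 ± 0.08 and 0.37 ± 0.09. AMPK is regulated by phosphorylation, which these data do not measure.

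Glycolysis genes were mostly a little lower, while the brake on glucose uptake was higher. Of 24 tested 14 fell, 3 rose and 0 doubled or halved (median -0.19). LDHA, lactate dehydrogenase, had 599, 581 and 618 CPM at 290 µg/mL, against 898, 909 and 908 CPM at 11.6 µg/mL (log2 change -0.59 ± 0.05, edgeR adjusted p = 5.14e-14), and ENO1, GPI and PFKL changed by -0.52 ± 0.05, -0.39 ± 0.04 and -0.62 ± 0.07 (edgeR adjusted p = 1.16e-12, 2.04e-11 and 7.34e-11). The lactate exporter SLC16A3 rose (log2 change 0.61 ± 0.06, edgeR adjusted p = 2.35e-11). TXNIP (chr1:145992435-145996600), which lowers glucose uptake, had 155, 152 and 156 CPM at 290 µg/mL, against 32.5, 33.3 and 31.2 CPM at 11.6 µg/mL (log2 change 2.25 ± 0.06, edgeR adjusted p = 7.54e-35), and its relative ARRDC4 had 30.5, 27.8 and 27.6 CPM at 290 µg/mL, against 6.49, 5.58 and 4.76 CPM at 11.6 µg/mL (log2 change 2.35 ± 0.10, edgeR adjusted p = 4.15e-26). For these 2 the order of doses was not even: at 58 µg/mL they had 22.9, 21.5 and 21.7 CPM and 4.31, 4.65 and 5.41 CPM, below every library of either other dose for TXNIP. MLXIP (MondoA), which controls both, fell (log2 change -0.80 ± 0.06, edgeR adjusted p = 1.35e-15). Of 17 genes of the tricarboxylic acid cycle 6 fell and 2 rose (1 in most alternatives), all by under 0.5 on the log2 scale. The share of these called, 47.1%, was below the 52.3% over all genes.

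Hypoxia genes outside glycolysis rose in 12 of 16 cases and fell in 2. VEGFA, the growth factor of vessels, which ATF4 also controls, had 374, 350.4 and 356 CPM at 290 µg/mL, against 83.96, 76.1 and 80.6 CPM at 11.6 µg/mL (log2 change 2.17 ± 0.05, edgeR adjusted p = 3.6e-37), and EPAS1, the oxygen-regulated factor HIF-2 alpha, changed by 0.87 ± 0.07 (edgeR adjusted p = 1.51e-14). Both carbonic anhydrases of the list, CA9 and CA12, fell (-1.29 ± 0.12 and -0.61 ± 0.04, edgeR adjusted p = 1.18e-12 and 4.7e-18), and the mitophagy receptor BNIP3L rose (log2 change 0.59 ± 0.07, edgeR adjusted p = 1.4e-09). VEGFA and CA9, each a target of hypoxia, thus moved in opposite directions.

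Genes of DNA replication were lower and so, by less, were those of mitosis. Of 29 replication genes 26 fell, 0 rose and 4 at least halved (median -0.68). MCM4, a subunit of the replicative helicase, had 152, 150.2 and 154 CPM at 290 µg/mL, against 331, 314 and 316 CPM at 11.6 µg/mL (log2 change -1.07 ± 0.04, edgeR adjusted p = 1.83e-28), with 315 CPM at 58 µg/mL, the level of the low dose. LIG1, which joins Okazaki fragments, and FEN1, which trims them, changed by -1.10 ± 0.05 and -1.06 ± 0.07, and the helicase subunits MCM3 and MCM5 by -0.68 ± 0.04 and -0.82 ± 0.05 (edgeR adjusted p = 1.09e-23, 2.66e-19, 1.52e-20 and 7.04e-20). Of 23 mitosis genes 20 fell, 0 rose and 0 halved (median -0.34). The spindle protein TPX2 had 203, 236 and 239.7 CPM at 290 µg/mL, against 296, 297 and 294 CPM at 11.6 µg/mL (log2 change -0.39 ± 0.04, edgeR adjusted p = 9.98e-11). BUB1B, KIF20A, CCNA2 and CENPE, of the spindle checkpoint, cytokinesis, S and G2 phases and chromosome movement, changed by -0.46 ± 0.05, -0.37 ± 0.05, -0.42 ± 0.05 and -0.52 ± 0.07. The proliferation marker MKI67 had 369, 467 and 542 CPM at 290 µg/mL, against 798, 673 and 727 CPM at 11.6 µg/mL.

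Of 12 G1 cyclins and CDK inhibitors tested 4 rose, 2 fell and 6 were not called (median -0.01). In this list 50% were called, against 52.3% over all genes. Among its cell cycle brakes, CDKN1A (p21) had 53.4, 52.9 and 49.9 CPM at 290 µg/mL, against 15.2, 14.8 and 14.7 CPM at 11.6 µg/mL (log2 change 1.80 ± 0.08, edgeR adjusted p = 4.24e-26). CDKN2B (p15) and CDKN1B (p27) rose by less (0.73 ± 0.08 and 0.29 ± 0.05, edgeR adjusted p = 3.37e-11 and 1.14e-06), CCND1 (cyclin D1) rose (log2 change 0.49 ± 0.05, edgeR adjusted p = 9.3e-13) and CDK2 fell (log2 change -0.41 ± 0.04, edgeR adjusted p = 1.16e-13). Of 18 p53 target genes 11 rose and 4 fell: beside CDKN1A, the stress sensor SESN2 (which ATF4 also controls) changed by 3.07 ± 0.09, the death receptor TNFRSF10B by 0.94 ± 0.05, the kinase PLK3 by 1.02 ± 0.08 and the antiproliferative BTG2 by -1.52 ± 0.10 (edgeR adjusted p = 1.32e-33, 1.01e-21, 4.93e-16 and 8.03e-18). MDM2, BAX and ZMAT3 of the same list were not called, and MDM2 had 75.8, 74.5 and 76.2 CPM at 290 µg/mL, against 73.9, 71.4 and 72.9 CPM at 11.6 µg/mL. HT29 cells are p53-mutant, and the activity of p53 was not measured here. In the BCL2 family 6 of 14 rose and 1 fell, and the 3 that doubled promote death: BMF had 24.1, 26.8 and 27.8 CPM at 290 µg/mL, against 7.78, 7.51 and 6.87 CPM at 11.6 µg/mL (log2 change 1.83 ± 0.10, edgeR adjusted p = 5.56e-22), PMAIP1 (NOXA) 15.1, 15.01 and 14.3 CPM at 290 µg/mL, against 4.53, 5.42 and 3.77 CPM at 11.6 µg/mL (log2 change 1.68 ± 0.12, edgeR adjusted p = 5.86e-17), and BBC3 (PUMA) changed by 1.32 ± 0.11 (edgeR adjusted p = 3.81e-14). The protective members MCL1 and BCL2L1 also rose, by less (0.33 ± 0.05 and 0.30 ± 0.04). In this family 50% were called, against 52.3% over all genes. Of 13 replication-dependent histone genes tested 4 rose and 2 fell (1 without any one of high-dose replicates 2 and 3 or of the low-dose replicates), a group in which close copies may share reads. Of these histone genes 46.2% were called, against 52.3% over all genes. H2AC6, whose transcript can also be polyadenylated, had 28.96, 27.99 and 26.4 CPM at 290 µg/mL, against 9.85, 10.1 and 10.1 CPM at 11.6 µg/mL (log2 change 1.47 ± 0.09, edgeR adjusted p = 8.63e-20), and 9 of the 22 listed were not tested.

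**Figure D3:**
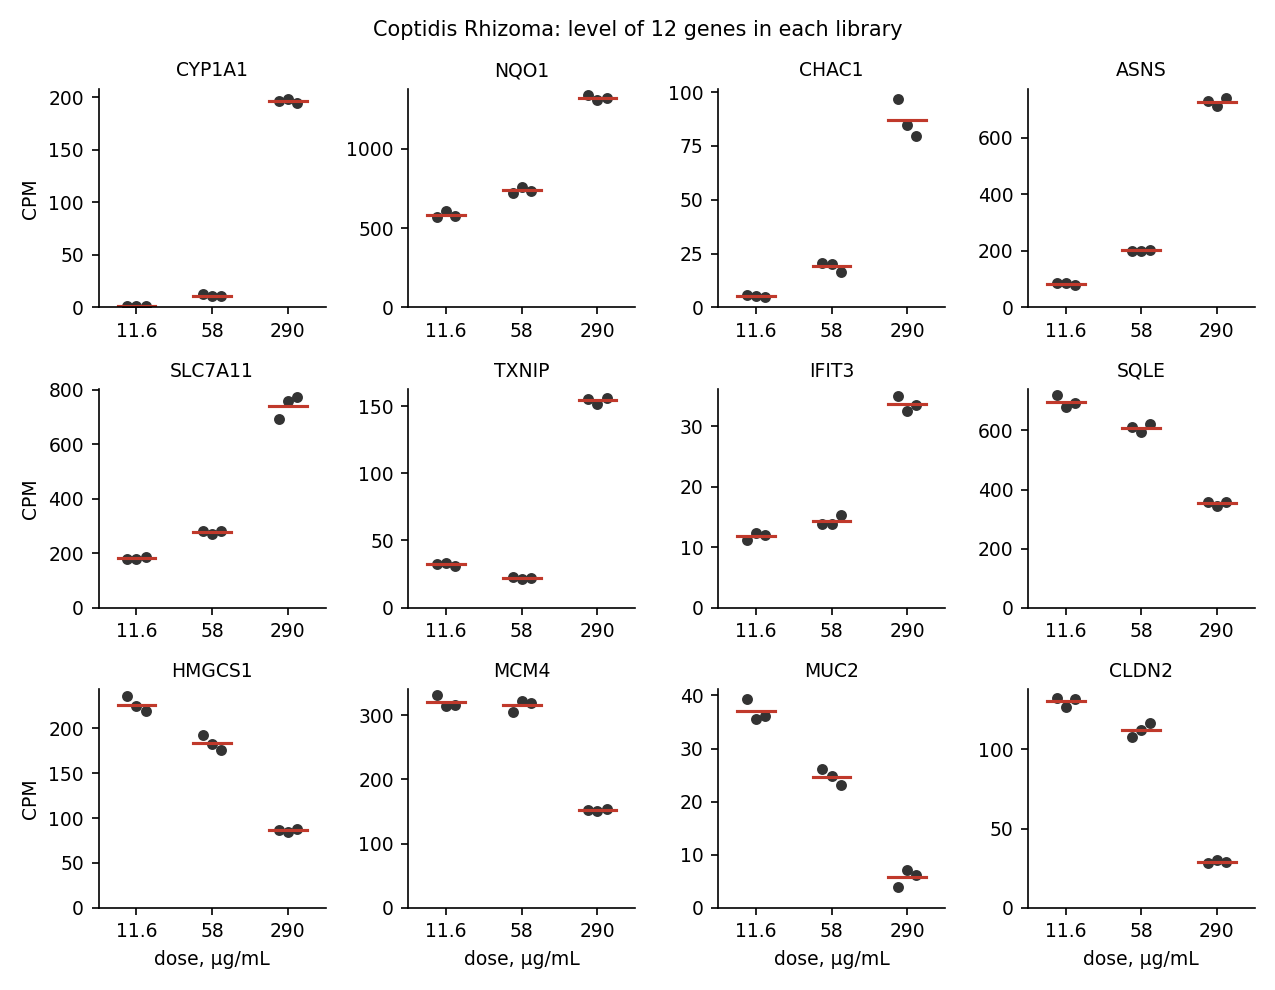
Level in CPM (vertical axes, from 0) of 12 genes in each library (points) by dose of Coptidis Rhizoma in µg/mL (horizontal axes), with the mean of 3 libraries as a red line. CYP1A1, CHAC1 and ASNS rise from dose to dose, TXNIP is lowest at 58 µg/mL, and MCM4 is the same at 11.6 and 58 µg/mL but lower at 290 µg/mL.

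RNAs made from the mitochondrial genome differed by dose in an uneven way, and the low dose was itself unlike the rest of the study. The mitochondrial genome codes for 2 ribosomal RNAs and 13 proteins of the respiratory chain, transcribed as long precursors that are cut apart. The 2 ribosomal RNAs took 1.51, 1.43 and 1.37% of counts at 290 µg/mL, against 7.64, 7.64 and 7.37% at 11.6 µg/mL. At 58 µg/mL they took 10.3, 10.2 and 9.52%, and in the 51 libraries outside Coptidis Rhizoma 1.02 to 1.40%. The high dose thus stood near those other libraries, and the low and medium doses far above them. Messenger RNA was sequenced, so a share of counts taken by ribosomal RNA is not a measure of its amount in the cells. The 13 protein-coding RNAs together took 2.48, 2.36 and 2.40% at 290 µg/mL, against 4.46, 4.53 and 4.41% at 11.6 µg/mL, where the other 51 libraries had 6.6 to 10.6%. All 3 doses were below the others here, the high dose most. An exact two-sided permutation test over the 3 and 3 libraries gave p = 0.1 for each share, the smallest it can give.

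Of the 13 protein-coding RNAs 8 were lower at 290 than at 11.6 µg/mL, 0 were higher and 5 at least halved. MT-ND5, a proton-pumping subunit of complex I, had 692, 730.1 and 651 CPM at 290 µg/mL, against 6352, 5825 and 5731 CPM at 11.6 µg/mL (log2 change -3.11 ± 0.13, edgeR adjusted p = 2.82e-24). MT-ND2 had 1243, 1164 and 1417 CPM at 290 µg/mL, against 5405, 5374 and 5044 CPM at 11.6 µg/mL (log2 change -2.05 ± 0.12, edgeR adjusted p = 7.13e-20), and MT-ND1 changed by -1.98 ± 0.16 (edgeR adjusted p = 6.24e-14). These are complex I subunits. MT-CO1, of complex IV, and MT-CYB, of complex III, changed by -0.91 ± 0.08 and -1.32 ± 0.12 (edgeR adjusted p = 1.83e-13 and 3.16e-13). The ribosomal RNAs MT-RNR1 and MT-RNR2 changed by -2.69 ± 0.09 and -2.43 ± 0.08 (edgeR adjusted p = 5.33e-31 and 7.72e-31). Not called were MT-CO2, MT-ATP8, MT-ATP6, MT-CO3 and MT-ND4, which lie between MT-CO1 and MT-ND5 with MT-ND3 and MT-ND4L.

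The reason to read these against the other libraries is plain in MT-CO3, which had 4382, 4259.7 and 4321 CPM at 290 µg/mL, against 4205, 4380.1 and 4088 CPM at 11.6 µg/mL. These 6 values were all below the 10373 to 18859 CPM of the 51 other libraries, so it was low at both doses. MT-ND5 at 11.6 µg/mL was above all 51 (2097 to 4116 CPM), and at 290 µg/mL below them all. Of the 15 RNAs, 13 were below all other libraries at 290 µg/mL, 10 at 58 µg/mL and 8 at 11.6 µg/mL. MT-RNR1 was above them all at each dose, and MT-RNR2, MT-ND2 and MT-ND5 were so at 11.6 µg/mL. A high-against-low change of a mitochondrial RNA is therefore not a change from an untreated level.

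**Figure D4:**
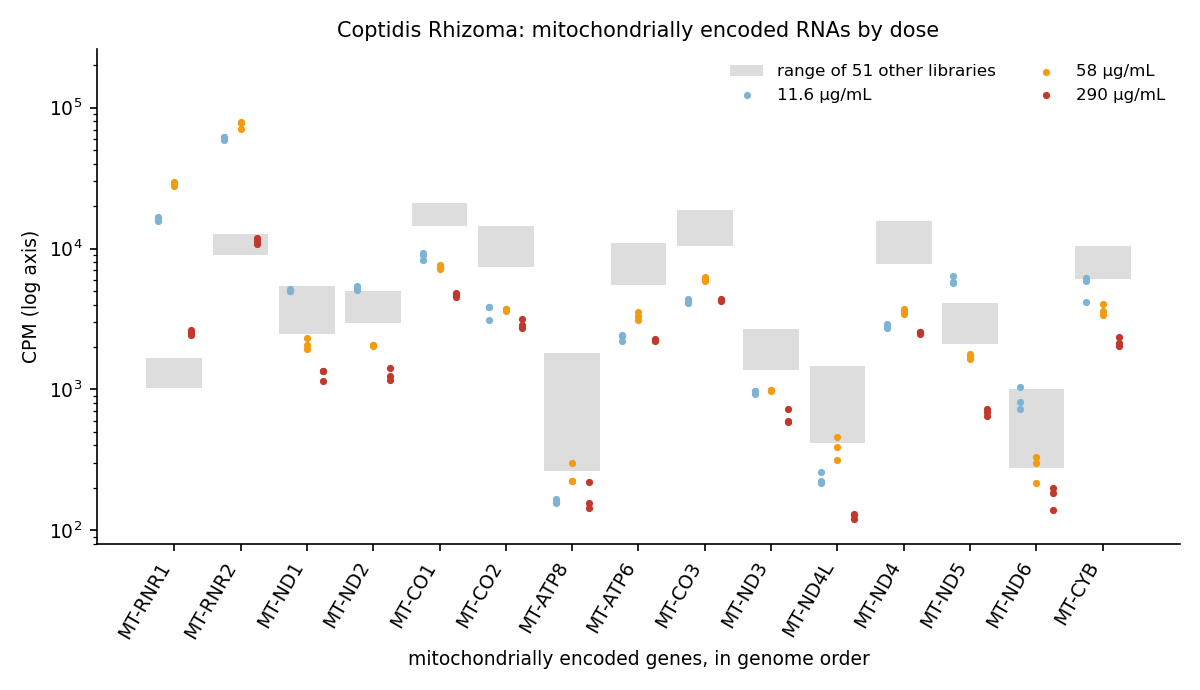
Level in CPM (vertical log axis) of the 15 mitochondrially encoded ribosomal and protein-coding RNAs, in genome order (horizontal axis), in each library at 11.6 (blue), 58 (orange) and 290 µg/mL (red), with a grey bar from the lowest to the highest of the 51 libraries outside Coptidis Rhizoma. At 290 µg/mL 13 of the 15 lie below the bar, and MT-RNR1 and MT-RNR2 at 11.6 and 58 µg/mL lie far above it.

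The calls of nuclear genes of the respiratory chain depended on the fit. Of 37 nuclear complex I subunits 3 rose and 2 fell (median -0.03), against shares of 27.1% and 25.3% over all genes. The subunit NDUFA2 changed by -0.50 ± 0.16 (edgeR adjusted p = 0.00719), and the 3 that rose (NDUFS4, NDUFB8 and NDUFA7) changed by 0.32, 0.25 and 0.36 on the log2 scale, and none of the 3 was called without high-dose replicate 1, when 5 of the 37 were lower. Without high-dose replicate 3 the median was 0.01. In a fit of only the 6 libraries 8 rose and 12 fell, and with no filter on low counts 4 rose and 14 fell. Of 38 nuclear subunits of complexes II to V 0 rose and 10 fell (median -0.11), with 3 higher and 19 lower in a fit of only the 6 libraries. The 10 were 26.3% of the list, near the 25.3% lower over all genes. They were led by SDHA, the catalytic subunit of complex II, with 167, 167 and 166 CPM at 290 µg/mL, against 269, 269 and 270.1 CPM at 11.6 µg/mL (log2 change -0.69 ± 0.05, edgeR adjusted p = 1.16e-17), and ATP5MC1, of the ATP synthase ring (log2 change -0.77 ± 0.09, edgeR adjusted p = 1.94e-10). UQCRC2, ATP5F1A and ATP5MC3 changed by -0.35 ± 0.05, -0.33 ± 0.06 and -0.48 ± 0.11.

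Of 27 genes that copy, cut and stabilise mitochondrial RNA, 1 rose (the helicase SUPV3L1) and 7 fell, against 2 and 11 in a fit of only the 6 libraries. In the main fit 29.6% were called, against 52.3% over all genes, and the share that fell was near the 25.3% over all genes. POLG, the mitochondrial DNA polymerase, had 47.5, 48.7 and 44.5 CPM at 290 µg/mL, against 81.7, 82.1 and 82.2 CPM at 11.6 µg/mL (log2 change -0.81 ± 0.05, edgeR adjusted p = 4.04e-19), PRORP, which cuts the 5′ ends of tRNAs from the precursor, had 15.8, 16.95 and 16.7 CPM at 290 µg/mL, against 25.1, 25.9 and 27.6 CPM at 11.6 µg/mL (log2 change -0.67 ± 0.06, edgeR adjusted p = 7.41e-13), and its partner TRMT10C and the 3′ nuclease ELAC2 changed by -0.45 ± 0.08 and -0.26 ± 0.04 (edgeR adjusted p = 7.88e-06 and 1.73e-06). TFAM and POLRMT, which start transcription, were not called, and TFAM had 126, 120.5 and 119.8 CPM at 290 µg/mL, against 113, 115 and 114 CPM at 11.6 µg/mL. Of 79 mitochondrial ribosomal proteins 7 rose and 26 fell (41.8% called, against 52.3% over all genes, median -0.06). The largest fall was that of MRPS25 (log2 change -0.81 ± 0.05, edgeR adjusted p = 6.96e-21), and MRPS10 rose (log2 change 0.55 ± 0.05, edgeR adjusted p = 3.65e-13). Among mitochondrial chaperones and proteases 5 of 13 rose and 3 fell (61.5% called, against 52.3% over all genes). The share of them that fell was near the 25.3% over all genes. HSPA9 (mortalin), the import chaperone, had 766, 781 and 802 CPM at 290 µg/mL, against 389.7, 385 and 394 CPM at 11.6 µg/mL (log2 change 1.01 ± 0.04, edgeR adjusted p = 1.7e-27), and the protease LONP1 and the co-chaperone DNAJA3 changed by 0.74 ± 0.06 and 0.58 ± 0.04, while the protease SPG7 and the chaperone TRAP1 fell (-0.53 ± 0.05 and -0.41 ± 0.06, edgeR adjusted p = 1.01e-12 and 2.35e-08).

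Cytosolic ribosomal protein RNAs were a little higher as a class. Of 79 tested 29 rose and 0 fell, with 0 doubled (median 0.23, range -0.07 to 0.38). The 29 were 36.7% of the list, against 27.1% higher over all genes. The count rested on single libraries, being 14 without high-dose replicate 1 and 16 without low-dose replicate 3, with 0 lower each time. They took 7.26, 6.45 and 6.52% of counts at 290 µg/mL, against 5.31, 5.60 and 5.27% at 11.6 µg/mL (exact two-sided permutation p = 0.1, the smallest possible). These do not overlap, but libraries outside Coptidis Rhizoma ran from 4.96 to 8.26%. Shares of counts are not scaled by TMM. Genes on the mitochondrial chromosome took 3.99, 3.79 and 3.77% at 290 µg/mL, against 12.1, 12.2 and 11.8% at 11.6 µg/mL. A smaller share there leaves a larger one for other genes, and its part in the ribosomal protein share was not tested. RPL4 changed by 0.38 ± 0.07 and RPS6 by 0.36 ± 0.10 (edgeR adjusted p = 9.56e-06 and 0.00178). Host transcripts of small nucleolar RNAs, whose starts resemble those of ribosomal protein genes, rose in 9 of 14 cases and fell in 1. SNHG32 had 134, 128 and 121 CPM at 290 µg/mL, against 53.4, 57.99 and 54.9 CPM at 11.6 µg/mL (log2 change 1.20 ± 0.07, edgeR adjusted p = 8.21e-20), ZFAS1 207, 171 and 189 CPM at 290 µg/mL, against 80.1, 82.8 and 75.5 CPM at 11.6 µg/mL (log2 change 1.25 ± 0.09, edgeR adjusted p = 1.23e-16), and GAS5 changed by 0.83 ± 0.09 (edgeR adjusted p = 8.76e-11). These noncoding RNAs are degraded when they are translated. Of 20 translation factors 12 rose and 4 fell, and the 1 that doubled was the translational repressor EIF4EBP1, which is an ATF4 target, with 68.7, 59.2 and 53.8 CPM at 290 µg/mL, against 17.2, 19.5 and 18.6 CPM at 11.6 µg/mL (log2 change 1.72 ± 0.13, edgeR adjusted p = 4.36e-15). Of 22 MYC and ribosome biogenesis genes 12 fell and 5 rose (median -0.21): UTP20 and NOP56, of ribosomal RNA processing, changed by -0.85 ± 0.11 and -0.47 ± 0.06, and RRN3, which recruits RNA polymerase I, by 0.48 ± 0.05 (edgeR adjusted p = 2.77e-09, 6.54e-09 and 1.87e-11).

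Genes of secretory cells were mostly lower. Of 17 tested goblet and secretory genes 13 fell, 8 of them at least halved, and 1 rose (median -0.85). MUC2 (chr11:1074875-1110511) had 3.996, 7.11 and 6.19 CPM at 290 µg/mL, against 39.4, 35.5 and 36.04 CPM at 11.6 µg/mL (log2 change -2.66 ± 0.22, edgeR adjusted p = 1.5e-13). ATOH1, the factor that commits progenitors to the secretory fate, had 0.629, 0.577 and 0.681 CPM at 290 µg/mL, against 4.07, 4.44 and 4.64 CPM at 11.6 µg/mL (log2 change -2.79 ± 0.17, edgeR adjusted p = 1.02e-19). The mucus protein FCGBP and the secreted lectin REG4 changed by -1.88 ± 0.13 and -1.45 ± 0.10 (edgeR adjusted p = 1.1e-16 and 8.22e-18). None of these overlapped between doses, and the mean of MUC2 at 58 µg/mL was 24.7 CPM. KLF4, a factor of goblet cell maturation that also halts proliferation, was the 1 that rose, with 28.1, 26.98 and 27.6 CPM at 290 µg/mL, against 6.24, 6.93 and 7.62 CPM at 11.6 µg/mL (log2 change 1.99 ± 0.09, edgeR adjusted p = 1.87e-24).

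Of 19 enterocyte and CEACAM genes 12 fell and 3 rose, and 5 at least halved. The adhesion proteins CEACAM6 and CEACAM5 had 10.7, 11.7 and 11.2 and 1.89, 2.67 and 2.04 CPM at 290 µg/mL, against 36.9, 36.4 and 34.7 and 6.92, 6.896 and 6.23 CPM at 11.6 µg/mL (-1.68 ± 0.07 and -1.60 ± 0.14, edgeR adjusted p = 1.49e-26 and 3.21e-14). CEACAM1 and VIL1, a protein of the brush border, changed by -0.69 ± 0.06 and -0.48 ± 0.04, and the peptidase DPP4 rose (log2 change 0.84 ± 0.07, edgeR adjusted p = 4.96e-14). FABP1, a fatty acid carrier, had 0.404, 0.505 and 0.476 CPM at 290 µg/mL, against 1.96, 1.78 and 1.59 CPM at 11.6 µg/mL. CEACAM genes are alike in sequence, and reads may be divided between them.

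Of 14 Wnt target and stem cell genes tested 10 fell and 1 rose, and 3 at least halved. LGR5, the receptor that marks intestinal stem cells, had 12.1, 11.2 and 11.6 CPM at 290 µg/mL, against 34.8, 32.6 and 32.6 CPM at 11.6 µg/mL (log2 change -1.52 ± 0.06, edgeR adjusted p = 2.84e-26). CD44, an adhesion receptor, had 242, 246 and 267 CPM at 290 µg/mL, against 550.3, 510.0 and 541 CPM at 11.6 µg/mL (log2 change -1.08 ± 0.05, edgeR adjusted p = 6.15e-25), and EPHB3 and PROM1 changed by -1.16 ± 0.08 and -0.46 ± 0.05 (edgeR adjusted p = 1.05e-16 and 4.36e-10). AXIN2, the feedback inhibitor of Wnt signalling, was the 1 that rose (log2 change 0.32 ± 0.05, edgeR adjusted p = 8.98e-07). LGR5 and AXIN2, both Wnt targets, thus moved in opposite directions. Of 16 tight junction genes 7 rose and 6 fell, and 1 stood out: CLDN2, the claudin that lets cations and water through, had 28.1, 30.2 and 29.1 CPM at 290 µg/mL, against 133, 127 and 132 CPM at 11.6 µg/mL (log2 change -2.16 ± 0.05, edgeR adjusted p = 8.58e-38), with 112 CPM at 58 µg/mL. The sealing claudin CLDN1, CLDN7 and OCLN (occludin) rose (0.52 ± 0.06, 0.62 ± 0.07 and 0.37 ± 0.05, edgeR adjusted p = 6.32e-11, 3.01e-11 and 1.46e-08).

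Genes of protein folding moved in both directions. Of 20 genes of the endoplasmic reticulum 9 rose and 10 fell (4 doubled, 0 halved). HERPUD1, which aids degradation of misfolded protein, had 126, 113 and 116 CPM at 290 µg/mL, against 38.6, 36.2 and 37.3 CPM at 11.6 µg/mL (log2 change 1.67 ± 0.06, edgeR adjusted p = 8.17e-30), and the sensor ERN1 (IRE1) and its target XBP1 changed by 1.82 ± 0.07 and 1.28 ± 0.07 (edgeR adjusted p = 8.05e-27 and 1.38e-20). PDIA4, a disulphide isomerase, fell (log2 change -0.71 ± 0.04, edgeR adjusted p = 7.2e-21) while HYOU1 rose (log2 change 0.65 ± 0.04, edgeR adjusted p = 1.24e-20), and the chaperone HSPA5 (BiP) had 417, 416 and 421 CPM at 290 µg/mL, against 367, 354 and 356 CPM at 11.6 µg/mL. Of 15 heat shock genes 9 fell and 1 rose, DNAJB4 (log2 change 0.90 ± 0.08, edgeR adjusted p = 1.27e-14). HSPA8, the constitutive chaperone, had 1235, 1166 and 1279 CPM at 290 µg/mL, against 1953, 1979 and 1971 CPM at 11.6 µg/mL (log2 change -0.68 ± 0.05, edgeR adjusted p = 8.27e-18), and HSP90AB1 changed by -0.30 ± 0.05 (edgeR adjusted p = 1.44e-06). Of 31 proteasome genes 8 fell and 1 rose, but 16 fell in a fit of only the 6 libraries, and 5 when either of high-dose replicates 1 and 2 or of low-dose replicates 1 and 2 was left out. In the main fit 29% of them were called, against 52.3% over all genes, and the share that fell was near the 25.3% over all genes.

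Of 24 lysosome and autophagy genes 10 rose, 5 of them at least doubled, and 6 fell (66.7% called, against 52.3% over all genes). The share of them that fell was near the 25.3% over all genes. MAP1LC3B (LC3B), which coats autophagosomes, had 174, 167 and 174 CPM at 290 µg/mL, against 44.1, 48.1 and 45.6 CPM at 11.6 µg/mL (log2 change 1.90 ± 0.05, edgeR adjusted p = 2.86e-33). The kinase ULK1, which starts autophagy, the cargo receptor SQSTM1 (p62), GABARAPL1 and the factor TFE3 changed by 1.43 ± 0.07, 1.01 ± 0.06, 1.58 ± 0.10 and 0.63 ± 0.05 (edgeR adjusted p = 2.75e-22, 1.24e-20, 5.36e-19 and 6.15e-16). The lysosomal proteins LAMP2 and CTSD were not called. LAMP3, among the largest rises, is not of this list.

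Of 20 immediate-early and ERK feedback genes 13 rose and 2 fell, SPRY2 and SPRY4. DUSP5, a phosphatase of nuclear ERK, had 14.9, 14.5 and 14.8 CPM at 290 µg/mL, against 4.28, 5.03 and 3.81 CPM at 11.6 µg/mL (log2 change 1.74 ± 0.11, edgeR adjusted p = 4.58e-19), and EGR1, ETV5, DUSP4 and PHLDA1 changed by 1.07 ± 0.08, 0.74 ± 0.05, 0.73 ± 0.07 and 0.54 ± 0.05. FOS and JUN were not called. Of 18 iron and haem genes 6 rose and 7 fell. The ferritin chains FTH1 and FTL rose, FTH1 with 10014, 8957 and 8592 CPM at 290 µg/mL, against 4158, 4606 and 4262 CPM at 11.6 µg/mL, the haem enzymes FECH and ALAS1 rose (0.98 ± 0.06 and 0.56 ± 0.05), and the iron exporter SLC40A1 (ferroportin) and the carrier SLC25A39 fell (-0.69 ± 0.06 and -0.64 ± 0.06, edgeR adjusted p = 4.88e-14 and 2e-13). Of 8 metallothionein and zinc export genes tested 4 rose and 1 fell, MT1A at under 1 CPM. MT1X and the zinc exporter SLC30A1 changed by 0.98 ± 0.16 and 0.48 ± 0.07 (edgeR adjusted p = 5.24e-07 and 2.17e-08).

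Of 15 efflux pump, uptake and glucuronidation genes 5 rose and 7 fell. SLC22A3, a carrier of organic cations, had 24.2, 24.6 and 23.7 CPM at 290 µg/mL, against 7.99, 8.15 and 7.58 CPM at 11.6 µg/mL (log2 change 1.61 ± 0.08, edgeR adjusted p = 2.16e-22), and UGDH, which makes the sugar donor of glucuronidation, changed by 0.56 ± 0.05 (edgeR adjusted p = 1.67e-14). The efflux pumps ABCG2, ABCC4 and ABCC1 fell (-0.58 ± 0.05, -0.53 ± 0.07 and -0.38 ± 0.06), and ABCB1 (P-glycoprotein) was not called, with 0.629, 0.794 and 0.715 CPM at 290 µg/mL, against 0.749, 0.889 and 1.15 CPM at 11.6 µg/mL. Of 15 insulin signalling genes under FOXO control 3 rose and 5 fell (53.3% called, near the 52.3% over all genes). The receptors IGF1R and INSR fell (-0.75 ± 0.09 and -0.47 ± 0.09, edgeR adjusted p = 1.93e-09 and 1.46e-05), as did BCL6 and SESN3 (-0.55 ± 0.07 and -1.01 ± 0.18), and CITED2 rose (log2 change 0.94 ± 0.10, edgeR adjusted p = 5.04e-11).

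The change was set beside those of 2 other water extracts given over the same 25-fold span, 500 against 20 µg/mL. Zizyphi Fructus shares the set of libraries of Coptidis Rhizoma, and Scutellariae Radix is of another set. In Zizyphi Fructus 8 genes were called between the high and low dose and in Scutellariae Radix 2713. High-dose replicate 3 of Zizyphi Fructus stood apart on the second principal component, with 8.55% of the variance. It lay at 58.2, the highest of all libraries, against -9.01 and 3.84 for replicates 1 and 2. No fit of the differences left it out, so its effect on the Zizyphi Fructus values was not tested. The difference between the high-against-low changes was itself called for 6880 genes (41.4%) against Zizyphi Fructus and for 6442 (38.8%) against Scutellariae Radix. The doses differ between extracts, so these are differences of the treatments as given. All 12 of the largest rises differed from both extracts. Of the 12 largest falls all differed from Zizyphi Fructus and all but RN7SL1 from Scutellariae Radix. These genes were picked for the size of their change in Coptidis Rhizoma, so a difference was likely from the start. RN7SL1 rested on 1 library.

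CYP1A1 rose with Scutellariae Radix too (log2 change 4.35, edgeR adjusted p = 7.25e-32), by less than with Coptidis Rhizoma (difference 3.05 ± 0.22, edgeR adjusted p = 1.34e-16). CHAC1 rose by 1.41 there (difference 2.60 ± 0.21, edgeR adjusted p = 5.17e-15) and ASNS by 0.94 (difference 2.17 ± 0.08, edgeR adjusted p = 8.04e-27). Both extracts thus raised these genes, Coptidis Rhizoma more. Of the 26 ATF4 targets tested 23 differed from Scutellariae Radix and 23 from Zizyphi Fructus. The lists' medians in Coptidis Rhizoma, Scutellariae Radix and Zizyphi Fructus were 2.23, 0.34 and 0.07 for ATF4 targets, 0.87, 0.80 and 0.26 for NRF2 targets, 1.21, -0.57 and -0.10 for interferon genes, -0.82, 0.42 and 0.06 for cholesterol synthesis and -0.68, 0.04 and 0.10 for DNA replication. For cytosolic ribosomal proteins they were 0.23, 0.00 and 0.36, and 1 of 79 members differed from Zizyphi Fructus. NRF2 targets had nearly equal medians in Coptidis Rhizoma and Scutellariae Radix, though 16 of 22 members differed. ME1, DUSP5, PHLDA1 and ALAS1 rose in both of these extracts, with differences that were not called (edgeR adjusted p = 0.641, 0.344, 0.775 and 0.827).

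**Figure D5:**
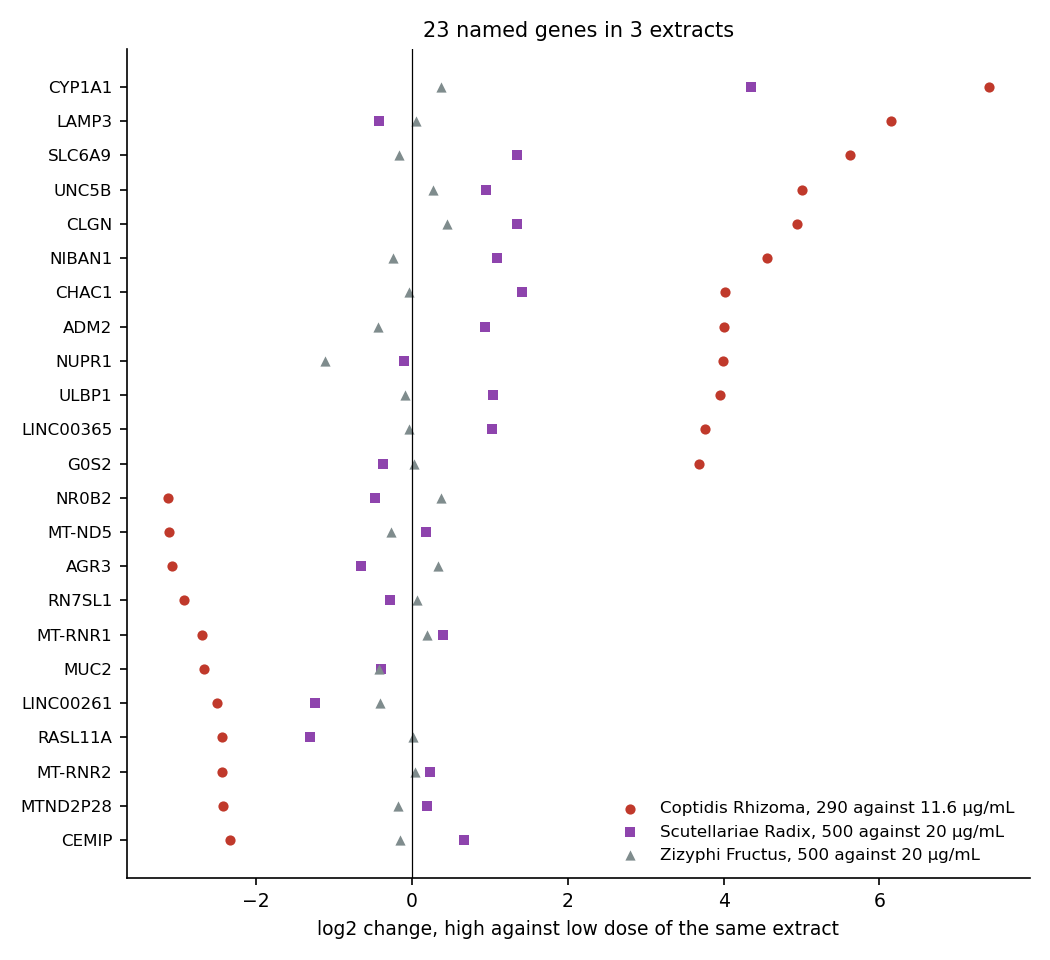
Log2 change between the high and low dose of each extract (horizontal axis) for the 12 named genes with the largest rise and 11 of those with the largest fall in Coptidis Rhizoma (rows): red circles are Coptidis Rhizoma (290 against 11.6 µg/mL), purple squares Scutellariae Radix and grey triangles Zizyphi Fructus (500 against 20 µg/mL each). The triangles lie between -1.11 and 0.45, and the purple square of CYP1A1 stands at 4.35.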

How the data were processed

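Per the submitters' processing notes, reads were checked with FastQC 0.11.9, trimmed with Trim Galore 0.6.5, aligned to GRCh38 with STAR 2.7.3a and counted with RSEM 1.3.3; the annotation release is not given in the sources used here. The authors deposited expected counts per gene, 1 column per library, of which 8.75% were not whole, and these were rounded. A further 210 columns of other samples were not used. RSEM shares reads among alike genes, so values of close paralogs are uncertain. Of 60675 genes, 56558 took their symbol from a gene name table and 497 from GENCODE 29, whose coordinates are given.

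Genes were tested with edgeR 4.0.16 (R 4.3.3): filterByExpr by group, TMM scaling, and the robust quasi-likelihood test in 1 fit of all 60 libraries and 20 groups (40 residual degrees of freedom), with Benjamini-Hochberg adjustment over the 16609 genes and a threshold of 0.05. Changes are log2 of 290 over 11.6 µg/mL, and errors are approximate standard errors from the F statistic. Differences between extracts were tested as interaction contrasts in that fit. The fit was also run on simulated data in which few genes changed and every gene had the same dispersion. These data are unlike that, so the simulation does not test the scaling or the error rate here. Depth ran from 21.4 to 33.6 M counts (M is 1000000) in the 6 libraries. The 12 genes with the largest change in each direction are named among called genes with no overlap between libraries and at least 5 CPM in the higher group. From each list, up to 5 genes by smallest p are given with change and p. The comparison and its 51 lists (1067 of 1068 entries matched) were chosen with earlier results of these data known. Alternatives were another scaling, mitochondrial genes left out, no filter, DESeq2 1.42.0, fewer libraries, a replicate block, a dose trend, and each of the 6 libraries left out. Other comparisons of the series were not used here, and some genes are not reported here.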

Additional observations from a re-analysis of the deposited data

Results flagged for a closer look

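The high-against-low change of Coptidis Rhizoma differed from that of the other extracts for 6880 genes against Zizyphi Fructus and 6442 against Scutellariae Radix, by edgeR's test of the difference. The 263 genes examined were those named by size of change or among the first 5 of a list. Of these, 42 were called in both Coptidis Rhizoma and Scutellariae Radix in opposite directions. Among the 42, 21 moved by at least 0.5 on the log2 scale in each, and most of them are given here. The genes were chosen by their values in Coptidis Rhizoma, and the share over all genes tested was not counted. These counts therefore describe only the genes examined.

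Sterol genes were lower with Coptidis Rhizoma and higher with Scutellariae Radix. The differences, Coptidis Rhizoma minus Scutellariae Radix on the log2 scale, were -2.04 for INSIG1, -1.92 for HMGCS1, -1.66 for DHCR7, -1.62 for SQLE, -1.48 for IDI1 and -1.37 for STARD4. The same held for the surface proteins CEMIP (-2.99), CEACAM5 (-2.41) and CEACAM6 (-2.32). The sterol exporter ABCA1 went the other way, with a difference of 1.43.

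Interferon and presentation genes were higher with Coptidis Rhizoma and lower with Scutellariae Radix, by 2.13 for IFIT3, 1.75 for IFIH1 and 1.88 for TAP1. So were TXNIP (2.96), LCN2 (2.13), the metallothioneins MT1X (1.64) and MT2A (1.09), and the histone genes H2AC6 (2.01) and H2AC11 (1.24). The change of H2AC11 in Coptidis Rhizoma lost its call in 7 alternatives (largest edgeR or DESeq2 adjusted p = 0.13).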

How the results depend on the processing

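The count of 8694 genes was between 7884 and 9149 under the alternatives, the lowest with the 18 libraries of the set and the highest with the 6 compared. DESeq2 called 8468. Leaving out each of the 6 libraries in turn gave 7931 to 8061 genes. For the differences from Zizyphi Fructus and Scutellariae Radix it gave 6288 to 6691 and 6018 to 6145. Genes doubled or halved numbered 1324 to 1761, the highest with no filter. Of the 8694 genes, 7660 (without high-dose replicate 3) to 8645 (replicate block) were called again. In each alternative 0 of these shared genes changed direction.

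The replicate numbers did not pair the libraries, with correlations of -0.08, -0.04 and -0.07 for the same number. With a replicate block 8699 genes were called, and 8739 with the block and only the 6 libraries.

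Of 258 called genes examined, 5 lost the call under some alternative: RN7SL1 in 4 alternatives, H2AC11 in 7, NDUFA7 in 5, and NDUFB8 and NDUFS4 in 3 each. The 258 were picked by smallest p in each list or by largest change, so they do not stand for all called genes. RN7SL1 was at -0.43 without low-dose replicate 1. The marker CD14 was called without high-dose replicate 1 (-0.42). The count of ribosomal proteins called higher ran from 14 to 58, and in all 15 settings 0 were lower. Across settings nuclear complex I had 0 to 8 higher and 2 to 14 lower, complexes II to V 7 to 19 lower and the proteasome 5 to 16 lower. The mitochondrially encoded genes have no value where they were left out. The cause of these shifts was not tested.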
